A study of Mus musculus with 16 samples.

Results

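Cultured mouse hippocampal neurons that had received lipoproteins with human apoE3 were compared with neurons that had received medium without apoE, over all genes. The comparison holds 8 of the 16 RNA libraries of the study, those labelled apoE3 lipoproteins (4 libraries) and those labelled Control Media (4 libraries), and libraries with the same replicate number were treated as a pair. The neurons of every group were wild type, from newborn CD1 pups, and were kept with AraC, which stops dividing cells from multiplying. Immortalized astrocytes homozygous for human apoE3 conditioned the medium of the apoE3 group, and *Apoe*-/- astrocytes that of the control group. The astrocytes of every group were kept with an added oxysterol, a hydroxycholesterol, while they conditioned the medium. Each medium was concentrated 10-fold and given to the neurons at 10 and 13 days in vitro (DIV), and RNA was taken at 17 DIV. The other 8 libraries received medium with apoE2 or apoE4 in the same way. The concentrated medium carries whatever else the astrocytes released, and each astrocyte line stands for its isoform alone, so line and isoform cannot be told apart. Each group was made of 4 independent cultures, and the amount of apoE was evened out between preparations by adding *Apoe*-/- medium.

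In the brain apoE is made mainly by astrocytes, which load it with cholesterol and phospholipids through the transporter ABCA1 and release it as lipoprotein particles. Neurons take these particles up through receptors of the LDL receptor family, among them LRP1, and use the lipid for membranes and synapses. In humans apoE3 is the common isoform, apoE4 raises and apoE2 lowers the risk of Alzheimer's disease. Astrocytes answer injury and cytokines of the interleukin-6 family, which signal through the shared receptor gp130 and the transcription factor STAT3, with a set of genes that includes *Gfap*, *Vim* and *Serpina3n*.

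The deposited values are raw read counts per gene. The control libraries held 18569593 to 28482361 counts on genes and the apoE3 libraries 14087723 to 26771984. Reads counted for no gene made up 51.4 to 64.7% of a control library and 52.0 to 71.6% of an apoE3 library. They include reads that were not aligned. *Lars2*, whose locus contains a ribosomal repeat, took 3.89 to 8.36% of the counts in the control and 2.83 to 12.5% in the apoE3 libraries, and was higher with apoE3 in pairs 1 and 3 and lower in pairs 2 and 4. The neurons carry their own mouse *Apoe*, which encodes apoE, so no gene in the files checks the group labels. *Apoe* had 907, 339, 834 and 1730.0 CPM (counts scaled to library size, replicates 1 to 4) in the control and 1628, 414, 781 and 2293 CPM in the apoE3 libraries, and did not pass the test (log2 fold change 0.35, adjusted p = 0.206). Its level followed the replicate number more than the treatment, being highest in number 4 and lowest in number 2 of either group.

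In edgeR's quasi-likelihood fit with a block for the replicate number, 17038 genes were tested and 1354 were higher with apoE3 (7.95%) and 636 lower (3.73%) at an adjusted p under 0.05. Of these, 436 rose and 98 fell at least 2-fold, and 1889 of the 1990 called genes moved in the direction of the call in all 4 pairs. The median log2 fold change over all tested genes was 0.015. The study names a Student's t-test and states no pairing. Without the block 1 gene was called. At the study's criterion, a 2-fold change with an unadjusted p under 0.05, 213 genes were then higher (1.25%) and 121 lower (0.71%). The block therefore carries the calls given here, and the common dispersion fell from 0.132 to 0.0178 once the number was in the fit. Deviations from the group means correlated at 0.775, 0.669 and 0.773 between the libraries of numbers 2, 3 and 4. For number 1 this was less clear: apoE3 replicate 1 correlated at 0.362 with control replicate 1 and at 0.409 with control replicate 4. What a replicate number stands for is not given in the sources used here. Each adjusted p printed below is edgeR's with the block, over all tested genes, unless it is said to be without it.

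**Figure D1:**
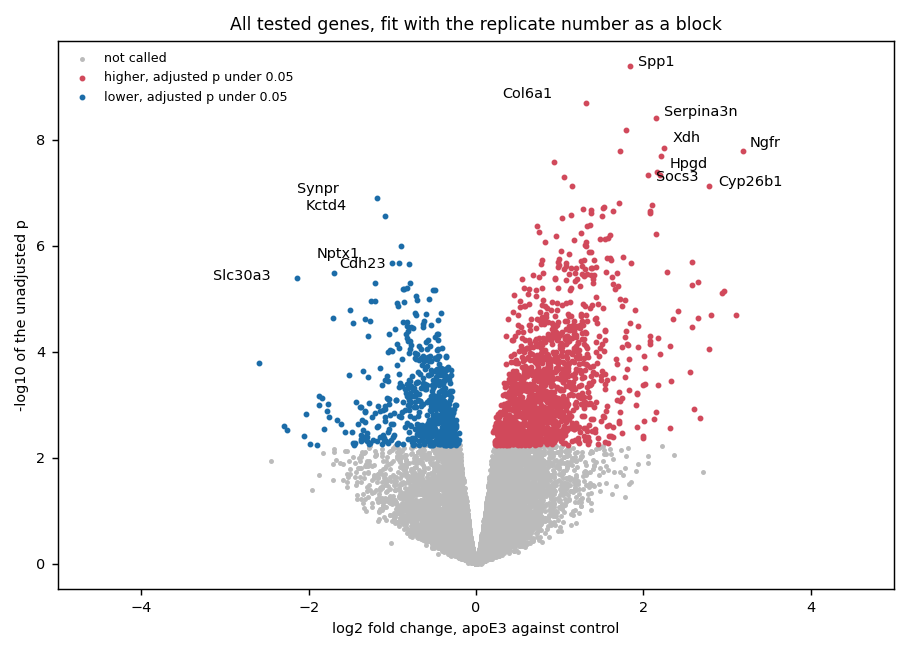
Each point is 1 of the 17038 tested genes, placed by its log2 fold change with apoE3 against control (horizontal) and the -log10 of its unadjusted p (vertical). The 1354 red genes were called higher and the 636 blue genes lower at an adjusted p under 0.05, and the smallest p-values lie on the higher side.

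The one gene called without the block was *Hpgd*, which encodes the dehydrogenase that inactivates prostaglandin E. *Hpgd* (chromosome 8, 56294585-56321043, GRCm38) had 2.23, 3.94, 4.50 and 5.92 CPM in the control libraries and 16.8, 18.7, 23.01 and 14.96 CPM in the apoE3 libraries. The 4 apoE3 values all lay above the highest control value. This was a log2 fold change of 2.20 (standard error 0.22, adjusted p = 6.57e-05), and without the block the adjusted p was 0.0413. Of the prostaglandin genes, 5 rose and 1 fell of 22 tested, with a list median of 0.36, where 7.95% of all genes tested were called higher and 3.73% lower. *Ptgs2*, the inducible cyclooxygenase, went the other way: it had 22.6, 54.9, 207 and 11.4 CPM in the control and 14.7, 20.7, 98.4 and 5.58 CPM with apoE3, lower in each pair although the groups overlapped (log2 fold change -1.05, adjusted p = 0.0149). *Ptgs1*, the constitutive cyclooxygenase, was not called (log2 fold change -0.18, adjusted p = 0.788), nor was *Ptger3*, a prostaglandin E receptor (log2 fold change 0.72, adjusted p = 0.0685). *Cbr3*, a carbonyl reductase (log2 fold change 0.92, adjusted p = 0.00449), and *Ptgfrn*, a membrane protein that regulates the prostaglandin F receptor (log2 fold change 1.02, adjusted p = 0.00392), rose.

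Genes of reactive astrocytes and of gp130 signaling rose together. In the reactive astrocyte list 23 rose and 1 fell of 37 tested, with a median log2 fold change of 1.10, and in the gp130 and JAK-STAT list 16 rose and 0 fell of 36 tested, with a median of 0.56. The counts stand against a background of 7.95% of all genes called higher and a median of 0.015 over all genes. In bulk RNA a larger number of astrocytes and more RNA of these genes per cell cannot be told apart. Without the block 4 and 7 of their members met the study's criterion as higher. *Serpina3n* (chromosome 12, 104406729-104414329, GRCm38), a protease inhibitor that astrocytes secrete, had 135, 113, 161 and 271 CPM in the control and 878, 470.5, 680.1 and 929 CPM with apoE3. Again no apoE3 library fell within the control range. The difference was a log2 fold change of 2.15 (standard error 0.18, adjusted p = 2.25e-05). *Serpina3h* (2.21), annotated as a transcribed pseudogene, and *Serpina3i* (2.16) had similar log2 fold changes. The members of this cluster are near-identical copies, so their reads may have been left out or assigned to the wrong copy.

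Along the gp130 pathway, *Osmr*, the oncostatin M receptor that pairs with gp130, rose by a log2 of 1.56 (adjusted p = 0.000544). *Stat3*, the transcription factor, had 127, 103, 112 and 192 CPM in the control and 258, 189.9, 270.0 and 287 CPM with apoE3 (log2 fold change 0.94, adjusted p = 4.99e-05). Control replicate 4 was above apoE3 replicate 2, so the groups overlapped by this 1 pair of values. *Socs3* (chromosome 11, 117966079-117970047, GRCm38), a STAT3 target that shuts the receptor off, had 6.86, 3.02, 4.36 and 19.3 CPM in the control and 35.95, 16.3, 20.6 and 45.9 CPM with apoE3. It rose in every pair, and control replicate 4 stood above apoE3 replicate 2. The fitted difference was a log2 fold change of 2.05 (standard error 0.20, adjusted p = 6.57e-05). *Cebpd* (1.37) and *Timp1* (2.08), a transcription factor and a metalloprotease inhibitor that gp130 cytokines induce, rose as well, and *Sbno2*, a transcriptional coregulator, went from 26.9, 15.7, 20.7 and 44.3 CPM to 100.2, 54.7, 99.3 and 100.3 CPM without overlap (log2 fold change 1.79, adjusted p = 2.81e-05).

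Promoter windows from RefSeq (GRCm38.p6, 250 bases before to 50 after a gene's start) were read for the letters of the STAT and AP-1 motifs, since STAT3 and AP-1 are the factors this gene set is known for. A window was found for 11600 of the tested genes, and 2347 genes had more than 1, of which the first by position was used. The STAT motif TTCNNNGAA was found on either strand in 6.72% of all windows, 6.9% of those of genes called higher and 7.06% of those called lower. The AP-1 motif, searched as TGANTCA, was found in 4.91%, 7.4% and 5.47%. Its open middle base makes this pattern wider than the usual AP-1 sites TGACTCA and TGAGTCA, and all 3 stretches shown for it below read TGATTCA. In the gp130 list 1 of 14 genes called higher and with a window held the STAT motif, and in the reactive astrocyte list 3 of 19 held the AP-1 motif. *Cp*, ceruloplasmin (log2 fold change 1.06), and *Emp1*, a membrane protein (1.03), are named for the motif after their values were seen. In the GENCODE annotation the windows of *Socs3* and *Osmr* lie inside the gene, so by it their stretches are not upstream of the gene. The 4 stretches show where these letters lie in genes that rose. They are shown as 30 bases read 5′ to 3′ in the direction of the gene, with the motif in capitals, and a match is a description and not a bound site.
*Socs3* (chr11:117969502-117969531, minus strand): agaaaccagccTTCTTAGAAgggagggggg
*Osmr* (chr15:6874293-6874322, minus strand): ttgccccgtagtTGATTCAtagctggggcg
*Cp* (chr3:19956865-19956894, plus strand): caatgacatattTGATTCAtttttccttgg
*Emp1* (chr6:135362894-135362923, plus strand): ttaaatccagacTGATTCAtagaaactcct

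Markers of resting astrocytes moved the same way. Of the astrocyte list 18 rose and 0 fell of 26 tested, with a median log2 fold change of 0.74, beside 7.95% of all genes higher and 3.73% lower, and 0 met the study's criterion without the block. *Gfap*, the intermediate filament of astrocytes, had 474, 189, 641 and 1288 CPM in the control and 2118, 354, 1411 and 3449 CPM with apoE3. Within each pair apoE3 was higher, but between replicate numbers the level differed by more than the treatment did, and the groups overlapped (log2 fold change 1.40, adjusted p = 0.000544, unadjusted p without the block 0.0578). *Aqp4*, the water channel of astrocyte endfeet (0.80), *Aldh1l1*, a folate enzyme (1.02), and *Slc1a3*, the glutamate transporter GLAST (0.62), rose by smaller log2 values. Among reactive genes *Vim*, a filament protein, rose by 1.27, *Lcn2*, a secreted siderophore-binding protein, by 1.26, and *Cd44*, a hyaluronan receptor, by 1.52.

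The summed level of the astrocyte list was 4055, 2153, 4037 and 6406 CPM in control replicates 1 to 4 and 7925, 2623, 5005 and 11699 CPM in apoE3 replicates 1 to 4, higher with apoE3 in 4 of 4 pairs. For reactive astrocytes the sums were 2651, 945, 2403 and 5649 CPM in the control and 8541, 1876, 4792 and 13994 CPM with apoE3. Glutamatergic neuron markers summed to 5623, 6574, 6576 and 4479 CPM and 4834, 6623, 6826 and 3489 CPM, lower with apoE3 in pairs 1 and 4 and higher in pairs 2 and 3. GABAergic interneuron markers summed to 1803, 1940.1, 1139 and 1833 CPM and 1499.7, 1692, 919 and 1205 CPM, lower in 4 of 4 pairs. The cultures were labelled primary hippocampal neurons, and *Slc17a7*, the vesicular glutamate transporter of excitatory neurons, had 803, 1039, 1120.4 and 518 CPM in the control and 612, 991, 1169.8 and 335 CPM with apoE3 (log2 fold change -0.26, adjusted p = 0.299), while the astrocyte markers were present in every library as well. The part of this marker level in each of the other gene groups was not tested.

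**Figure D2:**
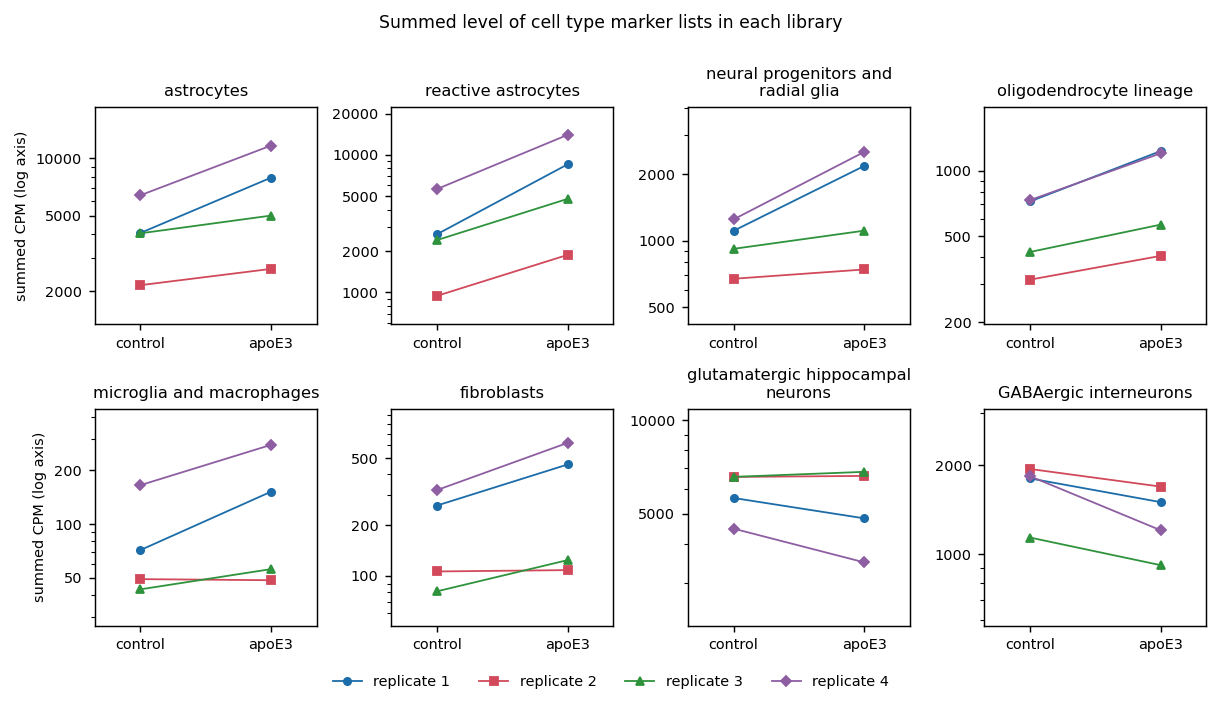
Summed CPM (log axis) of the members of 8 cell type marker lists in each control and apoE3 library, with lines joining libraries of the same replicate number. The astrocyte and reactive astrocyte sums rise along all 4 lines, replicate numbers 4 and 2 are the highest and lowest in both groups, and the interneuron sum falls along all 4 lines.

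Markers of other cells that such a culture can hold had calls on the higher side alone, where 7.95% of all genes were called higher and 3.73% lower. In the list of neural progenitors and radial glia 14 rose and 0 fell of 28 tested (median 0.71), in the oligodendrocyte lineage 7 rose and 0 fell of 27 tested (0.67) and among fibroblast genes 9 rose and 0 fell of 24 tested (0.58). Microglia and macrophages (3 rose and 0 fell of 22 tested), endothelium (4 rose and 0 fell of 12 tested), mural cells (3 rose and 0 fell of 13 tested) and ependyma (3 rose and 0 fell of 16 tested) had 3 or 4 calls each, and on lists this short 0 lower is near the 3.73% of all genes. Summed over the list, progenitor genes ran from 674 to 1250.1 CPM in the control and 742 to 2522 CPM with apoE3, oligodendrocyte genes from 315 to 733 CPM and 406 to 1233 CPM, fibroblast genes from 80.9 to 323 CPM and 108 to 616 CPM, mural cell genes from 21.9 to 178 CPM and 31.6 to 413 CPM, and ependymal genes from 56.95 to 349 CPM and 59.4 to 537 CPM. The summed levels were low for microglia, at 43.00 to 165 CPM in the control and 48.4 to 279 CPM with apoE3, and for endothelium, at 28.01 to 51.01 CPM and 29.2 to 101 CPM. Of their defining genes, *Flt1*, a receptor for vascular endothelial growth factor, rose (log2 fold change 1.15, adjusted p = 0.0281), and *C1qa*, *Csf1r*, *Cx3cr1*, *Kdr* and *Pecam1* were tested and not called. *C1qa*, a complement chain of microglia, was higher in 4 of 4 pairs and reached 16.5 CPM in apoE3 replicate 4 and 11.7 CPM in control replicate 4, with at most 3.28 CPM elsewhere (log2 fold change 0.47, adjusted p = 0.159). *Cx3cr1*, a microglial chemokine receptor, reached at most 3.54 CPM, *Pecam1*, an endothelial adhesion protein, at most 0.787 CPM, and *Cldn5*, a tight junction protein of brain endothelium, had 10 reads in all control and 10 in all apoE3 libraries, too few for the test. *Gldn*, a gliomedin of myelinating glia placed in the oligodendrocyte list, had the largest rise there (log2 fold change 2.66, adjusted p = 0.000815), from below 1 CPM in every control library, whereas *Mbp*, a main myelin protein, did not pass (log2 fold change 0.61, adjusted p = 0.0628). Of the progenitor genes, *Nes*, a filament protein, rose by 1.03, *Sox2*, a stem cell factor, by 0.71, and *Id3* and *Id1*, inhibitors of differentiation factors and targets of bone morphogenetic proteins, by 2.42 and 2.07.

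Extracellular matrix, adhesion and actin genes held the list with the most called members. In the actin and focal adhesion list 30 rose and 0 fell of 52 tested, with a median log2 fold change of 0.66. Of the collagens, laminins and fibronectin 21 rose and 1 fell of 64 tested (median 0.36), of the integrins and other matrix receptors 12 rose and 1 fell of 35 tested (0.46), and of the perineuronal matrix 9 rose and 1 fell of 25 tested (0.48). The shares over all genes were 7.95% higher and 3.73% lower. Without the block the study's criterion was met as higher by 0, 2, 1 and 2 of their members. The gene with the smallest p of all was *Spp1* (chromosome 5, 104435118-104441050, GRCm38), which encodes osteopontin, a secreted ligand of integrins and CD44. It had 88.3, 21.7, 15.99 and 177 CPM in the control and 418, 52.2, 64.6 and 611 CPM with apoE3. Its level rose in every pair but differed more between replicate numbers than between groups (log2 fold change 1.83, standard error 0.13, adjusted p = 6.82e-06, unadjusted p without the block 0.101).

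*Tnc*, the matrix glycoprotein tenascin C, had 32.1, 12.8, 27.01 and 54.3 CPM in the control and 142, 28.7, 67.1 and 247 CPM with apoE3 (log2 fold change 1.72, adjusted p = 4.04e-05). *Col6a1*, a chain of collagen VI, had 13.3, 8.41, 9.88 and 25.7 CPM and 28.2, 22.9, 24.8 and 66.1 CPM (log2 fold change 1.31, adjusted p = 1.74e-05), with control replicate 4 the only control library inside the apoE3 range. *Fn1*, fibronectin, rose by 1.39, *Itga5*, the integrin chain that binds it, by 1.62, *Sulf1*, an extracellular sulfatase that trims heparan sulfate, by 1.15, and *Layn*, a hyaluronan receptor, by 1.71. On the actin side *Msn*, which links actin to the membrane, rose by 1.38 and *Cnn2*, a calponin, by 1.28. The main proteoglycans of perineuronal nets did not pass, with log2 fold changes of -0.16 for *Acan* (adjusted p = 0.570) and 0.08 for *Bcan* (adjusted p = 0.819). *Col1a1* (log2 fold change 0.06, adjusted p = 0.915), the fibroblast collagen, was not called either.

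Growth factor, retinoid and vitamin D genes included some of the larger changes. *Ngfr* (chromosome 11, 95568818-95587735, GRCm38), the low-affinity p75 neurotrophin receptor, had 6.55, 7.49, 7.61 and 28.9 CPM in the control and 124, 60.1, 82.9 and 122 CPM with apoE3. The apoE3 values were all above the control values, and control replicate 4 stood apart from the other control libraries. This gave a log2 fold change of 3.19 (standard error 0.29, adjusted p = 4.04e-05), and an unadjusted p of 0.000246 without the block. Against 7.95% of all genes called higher and 3.73% lower, in its list 17 rose and 2 fell of 54 tested (median 0.25): *Fgf2*, a mitogen of glia, rose by 1.70 and *Igfbp2*, an IGF-binding protein, by 1.29, and *Bdnf*, the neurotrophin that excitatory neurons make, was not called (log2 fold change -0.28, adjusted p = 0.137). *Cyp26b1*, the enzyme that breaks down retinoic acid, had 5.50, 1.97, 11.9 and 13.9 CPM in the control and 60.4, 14.5, 52.00 and 88.3 CPM with apoE3, apart from each other (log2 fold change 2.79, adjusted p = 8.64e-05). *Aldh1a2*, an enzyme that makes retinoic acid, rose by 2.58 and *Vdr*, the vitamin D receptor, by 2.58, both from below 1 CPM in every control library, and 7 rose and 0 fell of 26 tested in this list (median 0.50). *Rarb*, a retinoic acid receptor that retinoic acid induces, had a log2 fold change of -0.06 (adjusted p = 0.864). *Xdh*, the xanthine dehydrogenase of purine breakdown, rose from 3.59, 2.86, 8.34 and 8.27 CPM to 20.7, 11.97, 52.9 and 26.5 CPM without overlap (log2 fold change 2.25, adjusted p = 4.04e-05), and *Ier5l*, a relative of immediate early response genes, rose by 1.05.

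The counts of the next 3 signaling lists stand beside 7.95% of all genes called higher and 3.73% lower. In the TGF-beta and BMP list 18 rose and 3 fell of 50 tested (median 0.44), among them *Smad6*, an inhibitory SMAD (1.80), and *Ltbp1*, which binds latent TGF-beta (1.54), while *Tgfb1* itself was not called (log2 fold change 1.25, adjusted p = 0.0718). Hippo effectors and YAP targets had 15 members that rose and 2 that fell of 38 (median 0.45). The coactivators *Yap1* (0.71) and *Wwtr1* (1.40), their DNA-binding partners *Tead2* (1.38) and *Tead4* (1.29) and the target *Ctgf*, a matrix-associated growth factor (1.78), all rose. In the Wnt list 12 rose and 4 fell of 52 tested (median 0.30): *Tcf7*, a nuclear effector, rose by 1.29, and the feedback gene *Axin2* was not called (log2 fold change -0.09, adjusted p = 0.550). The TEAD motif GGAATG, the letters that TEAD proteins bind, was present in 7 of 11 promoter windows of Hippo list genes called higher, in 44.8% of all windows of that list and in 12.2% of all windows. The list was assembled from genes known as targets, so this share describes the list and not the treatment. The 4 called members of smallest p with the motif read as follows, with the motif or its reverse complement in capitals. *Fat1*, a protocadherin (log2 fold change 0.76), *Axl*, a receptor tyrosine kinase (1.17), and *Ptpn14*, a phosphatase of the pathway (1.15), are named for the motif after their values were seen.
*Wwtr1* (chr3:57576029-57576058, minus strand): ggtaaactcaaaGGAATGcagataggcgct
*Fat1* (chr8:44950094-44950123, plus strand): cagtgtgggtggGGAATGcttgatgcataa
*Axl* (chr7:25788949-25788978, minus strand): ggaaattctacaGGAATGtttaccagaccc
*Ptpn14* (chr1:189728110-189728139, plus strand): cctccccggacgCATTCCtggcccgcccag

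Several lists of stress and cell death genes had more members called higher than the 7.95% of all genes, with 3.73% of all genes called lower. Of cell death genes 16 rose and 1 fell of 35 tested (median 0.50), of p53 targets 12 rose and 0 fell of 31 tested (0.36), of NRF2 targets 12 rose and 0 fell of 24 tested (0.46), of the integrated stress and unfolded protein responses 8 rose and 0 fell of 34 tested (0.23), and of heat shock proteins 6 rose and 1 fell of 25 tested (0.03). *Casp8*, the initiator caspase of death receptors, rose by 1.38, *Casp12*, a caspase of the endoplasmic reticulum, by 1.52, and *Bmf*, a proapoptotic BCL2 family member, by 2.08, from levels of at most 6.49 CPM in any control library. Among p53 targets *Cdkn1a*, the cell cycle inhibitor p21, rose by 0.65 and *Mdm2*, the p53 ligase, was not called (log2 fold change 0.34, adjusted p = 0.103). *Txnrd1*, thioredoxin reductase, had 118, 96.8, 99.4 and 173 CPM in the control and 241, 135, 189 and 278 CPM with apoE3 (log2 fold change 0.78, adjusted p = 0.000559), *Slc7a11*, the cystine transporter, rose by 1.11 and *Nqo1*, a quinone reductase, by 0.83, whereas *Hmox1*, heme oxygenase, missed the threshold (log2 fold change 0.75, adjusted p = 0.0544). The stress response genes *Atf4* (log2 fold change 0.03, adjusted p = 0.867), *Ddit3* (log2 fold change -0.19, adjusted p = 0.420) and *Hspa5* (log2 fold change 0.18, adjusted p = 0.314) were not called. *Hspb1*, a small heat shock protein of reactive astrocytes (2.08), and its partner *Bag3* (1.63) rose.

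Among NF-kappaB targets, cytokines and chemokines 13 rose and 1 fell of 31 tested (median 0.75), with *Icam1*, an adhesion protein for leukocytes (0.90), and *Ccl2*, a monocyte chemokine (1.06), higher and the feedback inhibitor *Nfkbia* not called (log2 fold change 0.39, adjusted p = 0.117). Over all genes 7.95% were called higher and 3.73% lower, and in the interferon and antigen presentation list 6 rose and 0 fell of 46 tested (median 0.34): *B2m*, the light chain of class I molecules, rose by 0.70, and *Isg15*, an interferon-induced modifier, did not pass (log2 fold change 0.60, adjusted p = 0.334). Lysosomal genes had 17 higher and 1 lower of 55 (median 0.27), with the protease *Ctsd* (0.68), the membrane protein *Lamp1* (0.45) and the cholesterol transporter *Npc1* (0.39) higher and *Atp6v1c2*, a subunit of the proton pump, lower (log2 fold change -1.51, adjusted p = 0.00801).

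In the cell cycle lists few replication genes were called. Of genes of DNA replication and S phase 1 rose and 0 fell of 63 tested (median 0.10), of replication-dependent histones 1 rose and 0 fell of 53 tested (-0.01), and of mitosis and spindle genes 6 rose and 0 fell of 79 tested (0.51), the last with 70 of 79 log2 fold changes above 0 and a share of calls near the 7.95% of all genes called higher. *Top2a* (chromosome 11, 98992943-99024189, GRCm38), the topoisomerase of dividing cells, had the largest log2 fold change in its list. It had 2.18, 2.46, 4.57 and 7.44 CPM in the control and 26.5, 35.01, 15.8 and 16.5 CPM with apoE3, with no overlap (log2 fold change 2.58, standard error 0.35, adjusted p = 0.000559, unadjusted p without the block 4.08e-05). The proliferation marker *Mki67* (log2 fold change 0.56, adjusted p = 0.175) and the mitotic genes *Cdk1* (log2 fold change 0.49, adjusted p = 0.457), *Ccnb1* (log2 fold change 0.66, adjusted p = 0.153) and *Bub1b* (log2 fold change 1.25, adjusted p = 0.0656) were not called, nor was *Pcna*, the replication clamp (log2 fold change 0.11, adjusted p = 0.429). Of cell cycle inhibitors, retinoblastoma proteins and G1 cyclins 5 rose and 0 fell of 21 tested, with *Ccnd1*, cyclin D, higher by 1.01 and *Rb1*, the retinoblastoma protein, by 0.52.

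The CHR motif TTTGAA, through which the DREAM complex restrains mitotic genes, was found in 73.3% of the 60 promoter windows of the mitosis list against 11.5% of all windows, 11.3% of those of genes called higher and 9.57% of those called lower. The share of the list is a property of mitotic promoters and was not set against the treatment. Of 5 list members that rose and had a window, 4 held it, shown here with the motif or its reverse complement in capitals. Beside *Top2a* they are *Arhgap11a*, a GTPase-activating protein (log2 fold change 1.08), *Espl1*, separase (0.96), and *Kifc1*, a kinesin (1.09), the last named for the motif after its values were seen.
*Top2a* (chr11:99024195-99024224, minus strand): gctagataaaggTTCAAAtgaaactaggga
*Arhgap11a* (chr2:113848743-113848772, minus strand): aagggtcctcatTTTGAAaacaggagcggg
*Espl1* (chr15:102296254-102296283, plus strand): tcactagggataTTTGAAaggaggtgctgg
*Kifc1* (chr17:33890615-33890644, minus strand): cggaggttgaaaTTCAAAagtggcgggtgt

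Members of the inhibitory synapse and synaptic vesicle lists fell. None of 23 GABA receptor and inhibitory postsynapse genes was called higher and 8 fell, with a median of -0.31, against 3.73% of all genes called lower. Synaptic vesicle and exocytosis genes had 11 lower and 4 higher of 71 (median -0.18), and postsynaptic scaffolds and adhesion proteins 9 lower and 0 higher of 55 (median -0.19). At the study's criterion without the block 0, 1 and 0 of their members were lower. Summed over the list, inhibitory postsynapse genes with apoE3 were 0.773, 0.939, 0.873 and 0.661 times the paired control in pairs 1 to 4, vesicle genes 0.842, 0.987, 0.947 and 0.711 times, and postsynaptic genes 0.839, 0.997, 0.955 and 0.741 times. The lowest ratios were in pairs 1 and 4, which also had the larger astrocyte ratios (1.95 and 1.83), and whose apoE3 libraries had the fewest counts on genes (14087723 and 14797392) and the largest shares of reads not aligned (32.8% and 34.9%) of the 8. Their part in these falls was not tested. *Synpr* (chromosome 14, 13284780-13616340, GRCm38), synaptoporin of the vesicle membrane, had the smallest p of all genes that fell. It had 184, 122, 112 and 129 CPM in the control and 68.3, 62.6, 53.9 and 50.7 CPM with apoE3, and the groups did not overlap. This was a log2 fold change of -1.19 (standard error 0.13, adjusted p = 0.000134), with an unadjusted p of 0.000109 without the block.

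*Gabrb2*, a beta subunit of GABA-A receptors, had 188, 175, 139 and 143 CPM in the control and 112, 142, 107 and 68.9 CPM with apoE3 (log2 fold change -0.60, adjusted p = 0.00348). The alpha subunit *Gabra4* (-0.63) and gephyrin, *Gphn*, which anchors the receptor (-0.26), fell as well. On the presynaptic side *Gad1*, the enzyme that makes GABA, had 319, 285, 191 and 240.2 CPM and 195, 225, 119.7 and 113 CPM (log2 fold change -0.69, adjusted p = 0.00381) and *Gad2* was not called (log2 fold change -0.26, adjusted p = 0.0925). In the interneuron list 2 rose and 8 fell of 30 tested (median -0.25, with 7.95% of all genes higher and 3.73% lower): the peptide *Vip* fell (log2 fold change -1.30, adjusted p = 0.00833), *Pvalb*, parvalbumin, rose (log2 fold change 0.58, adjusted p = 0.0222) and *Sst*, somatostatin, was not called (log2 fold change -0.40, adjusted p = 0.155). Fewer interneurons and less of these transcripts per interneuron cannot be told apart here, and astrocyte markers in the same libraries summed to 2153 to 6406 CPM in the control and 2623 to 11699 CPM with apoE3.

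**Figure D3:**
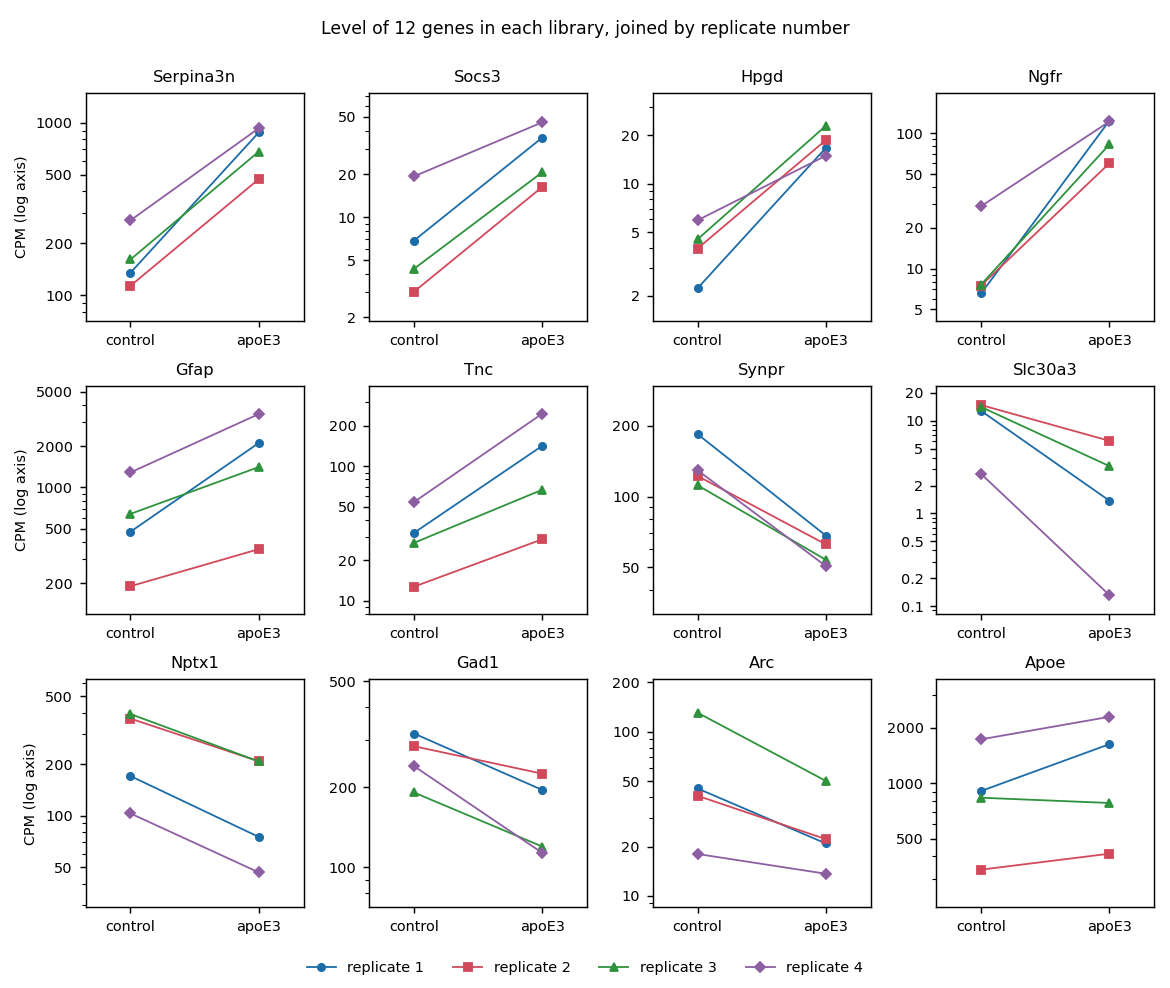
CPM (log axis) of 12 genes in each control and apoE3 library, with lines joining the same replicate number. *Serpina3n*, *Hpgd* and *Ngfr* in the apoE3 libraries lie above every control library and *Synpr* below every one, while *Gfap*, *Tnc*, *Nptx1* and *Arc* shift within pairs across a wider spread between replicate numbers, and *Apoe* does not shift in one direction in all pairs.

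Glutamate receptor genes were called lower more often than higher, against 3.73% and 7.95% of all genes. Of AMPA receptor subunits and auxiliary proteins 2 rose and 4 fell of 34 tested (median -0.14), and of NMDA, kainate and metabotropic receptors 1 rose and 3 fell of 23 tested (median -0.22). The main subunits *Gria1* (log2 fold change -0.34, adjusted p = 0.0747), *Gria2* (log2 fold change -0.19, adjusted p = 0.330), *Grin1* (log2 fold change -0.44, adjusted p = 0.0508), *Grin2a* (log2 fold change -0.35, adjusted p = 0.103) and *Grin2b* (log2 fold change -0.20, adjusted p = 0.542) did not pass. *Nptx1*, a secreted pentraxin that clusters AMPA receptors, had 171, 371, 394 and 103 CPM in the control and 75.03, 208, 208 and 46.5 CPM with apoE3 and was lower by about the same log2 amount in each pair (log2 fold change -1.01, adjusted p = 0.000559). *Gsg1l*, an auxiliary subunit, fell by 1.05 on the log2 scale, and *Syndig1l*, a relative of an AMPA receptor partner, rose from 6.18, 5.92, 3.46 and 6.60 CPM to 22.6, 14.7, 27.6 and 14.4 CPM (log2 fold change 1.84, adjusted p = 0.00237). The vesicle proteins *Syn2* (-0.71) and *Snap25* (-0.35) fell, and *Syp* (log2 fold change -0.15, adjusted p = 0.466) and *Syn1* (log2 fold change -0.24, adjusted p = 0.598) were not called. Of the scaffolds *Dlg4*, which encodes PSD95, missed the threshold (log2 fold change -0.31, adjusted p = 0.0531), as did *Homer1* (log2 fold change -0.36, adjusted p = 0.0943) and *Shank3* (log2 fold change -0.19, adjusted p = 0.332), whereas *Camk2b*, a synaptic kinase, fell (log2 fold change -0.36, adjusted p = 0.0397).

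Genes that neurons switch on with activity went both ways, 4 rose and 5 fell of 41 tested, beside 7.95% of all genes called higher and 3.73% lower, which is also the background of the channel and peptide counts that follow. *Arc*, which moves AMPA receptors out of synapses, had 45.2, 40.8, 131 and 18.02 CPM in the control and 20.9, 22.2, 50.2 and 13.6 CPM with apoE3 (log2 fold change -0.96, adjusted p = 0.00266), *Npas4*, a transcription factor of inhibitory synapse formation, fell (log2 fold change -0.95, adjusted p = 0.0154), and *Fos* (log2 fold change 0.14, adjusted p = 0.664), *Egr1* (log2 fold change -0.21, adjusted p = 0.559) and *Egr2* (log2 fold change -1.07, adjusted p = 0.124) were not called. Potassium channel subunits had 9 lower and 4 higher of 73, including *Kcnc2*, a fast delayed rectifier of interneurons (-0.71), and sodium, calcium and HCN channels 5 lower and 2 higher of 33. Of neuropeptide precursors 2 rose and 3 fell of 31 tested, with cholecystokinin, *Cck*, higher (log2 fold change 0.78, adjusted p = 0.00971) and chromogranin B, *Chgb*, a granule protein, lower (log2 fold change -0.45, adjusted p = 0.00793). Of axon guidance genes 12 rose and 12 fell of 69 tested, against 7.95% of all genes called higher and 3.73% lower. Of C1q-like proteins and cerebellins, secreted organizers of synapses, 1 rose and 3 fell of 10 tested: *C1ql3* fell (log2 fold change -0.63, adjusted p = 0.0166), *C1ql1* rose (log2 fold change 1.50, adjusted p = 0.0265), and *C1ql2* (log2 fold change -0.77, adjusted p = 0.0539) and *Cbln2* (log2 fold change -0.54, adjusted p = 0.0689) were not called. Markers of glutamatergic hippocampal neurons had 3 higher and 3 lower of 29 (median -0.11).

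Genes that fell outside these lists were led by *Kctd4*, which had 21.6, 46.3, 17.6 and 15.8 CPM in the control and 12.1, 19.7, 7.69 and 7.68 CPM with apoE3 (log2 fold change -1.08, adjusted p = 0.000162). *Slc30a3*, the transporter that loads zinc into vesicles of excitatory terminals, had 12.8, 14.8, 14.1 and 2.67 CPM in the control and 1.37, 6.07, 3.24 and 0.131 CPM with apoE3, and fell in every pair (log2 fold change -2.14, standard error 0.30, adjusted p = 0.000718). Control replicate 4 and apoE3 replicate 4 were the lowest libraries of their groups. *Myh8*, a myosin heavy chain, had 13.2, 14.8, 14.5 and 11.2 CPM and 3.81, 8.49, 1.90 and 3.35 CPM with no overlap (log2 fold change -1.71, adjusted p = 0.00215). *Cdh23* (-1.70) and *Cdh9* (-1.26), cadherins, *Trpm3*, a cation channel (-1.21), *Cpne4*, a copine (-1.26), *Gpr6*, an orphan receptor (-1.33), *Rasgrp1*, a Ras activator (-1.04), *Pde7b*, a cyclic AMP phosphodiesterase (-1.29), *Slc16a11*, a transporter of the monocarboxylate family (-1.51), *Cpm*, a carboxypeptidase (-1.47), and *Strip2* (-1.21) fell by the log2 values given, and with *Synpr* and *Nptx1* these are the 15 with the smallest p among called genes whose fitted change was at least 2-fold and that were lower in all 4 pairs. *Cpne4* and *Rasgrp1* differed more between replicate numbers than between groups, with unadjusted p of 0.173 and 0.297 without the block.

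**Figure D4:**
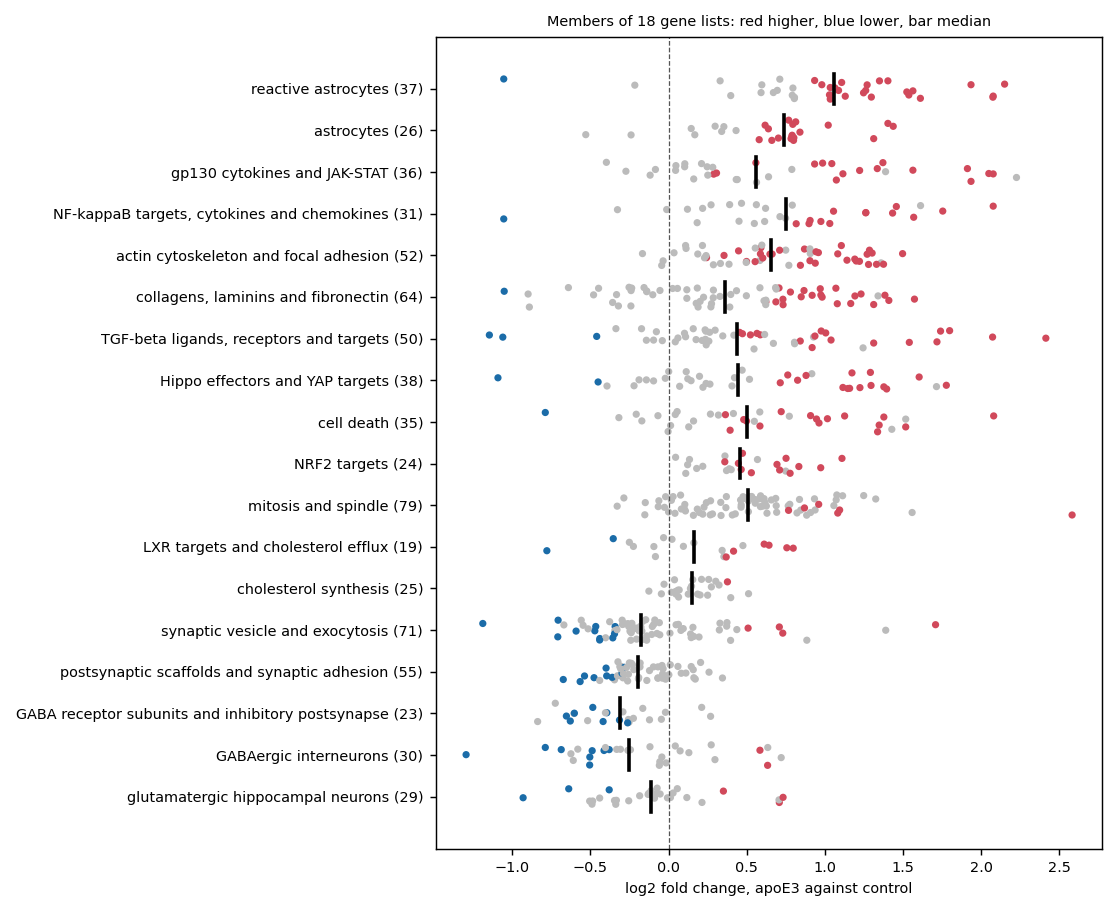
Log2 fold change with apoE3 against control of each tested member of 18 gene lists, with the number tested in parentheses; red members were called higher, blue members lower, grey members neither, and the black bar is the list median. The medians of reactive astrocyte (1.10), astrocyte (0.74) and actin genes (0.66) lie to the right and those of inhibitory synapse (-0.31) and interneuron genes (-0.25) to the left of 0.

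Lipid handling genes include the receptors and carriers that lipoproteins meet. Of the LDL receptor family and other apoE receptors 6 rose and 1 fell of 25 tested (median 0.22), with 7.95% of all genes called higher and 3.73% lower. Receptors that bind apoE on neurons were not called: *Lrp1* had 475, 327, 329.9 and 376 CPM in the control and 427, 337, 389 and 423 CPM with apoE3 (log2 fold change 0.07, adjusted p = 0.778), and *Lrp8*, which also binds reelin (log2 fold change 0.23, adjusted p = 0.0944), and *Vldlr* (log2 fold change 0.03, adjusted p = 0.862) did not pass. *Sdc4*, a heparan sulfate proteoglycan that can bind lipoproteins, rose (log2 fold change 1.26, adjusted p = 0.00194). Among targets of LXR, a receptor that senses oxysterols, 6 rose and 2 fell of 19 tested (median 0.16). The medium of both groups had been made with an added oxysterol, whose part in these values was not tested. *Abca1*, the lipid exporter that loads apoE, had 148, 65.8, 122 and 234 CPM and 439, 95.8, 196 and 330.4 CPM (log2 fold change 0.80, adjusted p = 0.00867), *Srebf1*, a lipogenic transcription factor, rose by 0.76 and *Pltp*, a phospholipid transfer protein, by 0.64. *Abcg1*, a second sterol exporter, was not called (log2 fold change -0.25, adjusted p = 0.232).

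In cholesterol synthesis 1 rose and 0 fell of 25 tested (median 0.15), with 22 log2 fold changes above 0. On a list this short these counts are near the shares of all genes, 7.95% called higher and 3.73% lower. *Hmgcs1*, which makes a precursor of mevalonate, had 206, 1427, 1009 and 207 CPM in the control and 132, 1332, 935 and 433 CPM with apoE3 (log2 fold change 0.04, adjusted p = 0.929). In both groups it was higher in replicate numbers 2 and 3 than in 1 and 4. *Sqle*, squalene epoxidase, was not called (log2 fold change 0.13, adjusted p = 0.699). Of fatty acid synthesis and elongation genes 5 rose and 1 fell of 25 tested: *Elovl7* (log2 fold change 1.24, adjusted p = 0.00521), *Elovl1* (log2 fold change 1.17, adjusted p = 0.00301) and the desaturase *Scd2* (log2 fold change 0.42, adjusted p = 0.0426) rose and *Elovl2*, which elongates polyunsaturated chains, fell (log2 fold change -0.66, adjusted p = 0.0175), while *Fasn* (log2 fold change -0.14, adjusted p = 0.425) and *Acaca* (log2 fold change -0.03, adjusted p = 0.847), which make the fatty acid chain, were not called.

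Nuclear-encoded housekeeping genes were called less than the 7.95% of all genes called higher and 3.73% lower. Of nuclear genes of oxidative phosphorylation 2 rose and 0 fell of 80 tested (median 0.09) and of cytosolic ribosomal proteins 1 rose and 0 fell of 83 tested (0.17), although 81 of the 83 ribosomal log2 fold changes were above 0. Mitochondrially encoded genes had 5 higher of 10 (0.41), for example *mt-Nd1* (log2 fold change 0.36, adjusted p = 0.0438), and *mt-Co1* was not called (log2 fold change 0.08, adjusted p = 0.753). Among the most abundant genes called higher were *Tmsb4x*, an actin-binding thymosin (0.46), *Tuba1a*, an alpha tubulin (0.46), *Scd2* and *Gfap*, and among those called lower *Snap25*, *Clstn1*, a calsyntenin (-0.33), *Camk2b*, *Cntn1*, a contactin (-0.31), and *Nsmf*, a synapse-to-nucleus messenger (-0.34).

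The study's text counts 12 transcription factors for apoE3, and the list of them used here held 13. Of this list 12 could be tested, of which 11 rose and 0 fell with the block, beside 7.95% and 3.73% of all genes. At the study's criterion without the block 10 were higher and 1 was lower. The list was chosen by the study on these samples, so its direction is not independent evidence. *Ascl2*, a basic helix-loop-helix factor, rose most (log2 fold change 2.96, adjusted p = 0.000990), from below 1 CPM in every control library, followed by *Vdr*. *Litaf* (1.46), a lysosomal protein induced by lipopolysaccharide, and *Cebpb* (1.07), a partner of *Cebpd*, belong to it as well, and *Egr2*, not called with the block, was the 1 that met the criterion as lower (unadjusted p without the block 0.0432). *Egr2* was lower with apoE3 in pairs 2 and 3 and higher in pairs 1 and 4.

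The apoE3 libraries were also tested directly against those of the other isoforms in the same fit. Against apoE2, 122 genes were higher with apoE3 (0.716%) and 102 lower (0.599%), and against apoE4, 118 were higher (0.693%) and 182 lower (1.07%). Without the block these tests called 0 and 25 genes. Against apoE2 the count of 224 genes went to 20 with only the libraries of both groups, 15 without replicate number 3 and 57 without apoE3 replicate 1, and against apoE4 the count of 300 genes went to 42 without replicate number 3 and 102 without apoE3 replicate 1. The genes with the smallest p against the control were among those that differed, although they were picked for their apoE3 level and the same apoE3 libraries enter both tests. *Ngfr* was higher with apoE3 than with apoE4 by a log2 of 2.76 (adjusted p = 0.000211) and than with apoE2 by 1.33 (adjusted p = 0.0277). *Hpgd* differed from apoE4 by 2.16 (adjusted p = 0.000211) and from apoE2 by 0.82 (adjusted p = 0.0657), so the second difference did not pass. *Xdh* was higher with apoE3 than with apoE2 by 2.09 (adjusted p = 0.000588), and *Socs3* by 1.13 (adjusted p = 0.0140) and, against apoE4, by 1.09 (adjusted p = 0.00881). *Cdh23* differed from apoE4 by a log2 of -1.70 (adjusted p = 0.00222), and the difference from apoE2 did not pass (log2 0.14, adjusted p = 0.842).

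Where the gene lists are compared, each isoform's own values stand side by side, and all 3 share the control libraries. The reactive astrocyte list had a median log2 fold change of 1.10 with apoE3, 0.58 with apoE2 and 0.83 with apoE4, with 23, 10 and 19 members called higher. Over all genes 7.95% were higher with apoE3, 1.17% with apoE2 and 3.18% with apoE4, and 3.73%, 0.552% and 0.129% were lower. Tested directly, 6 of the 37 reactive astrocyte genes were higher with apoE3 than with apoE2 and 3 than with apoE4, and none was lower. For astrocyte markers the medians were 0.74, 0.38 and 0.52, and no member differed between apoE3 and either isoform. Inhibitory postsynapse genes had medians of -0.31, -0.04 and -0.16 with 8, 0 and 0 called lower, beside the lower share of all genes with these isoforms given above, and 0 members differed directly. Actin and focal adhesion genes had 5 members higher with apoE3 than with apoE2 and 0 than with apoE4, and 1 that was lower with apoE3 than with apoE4, *Ahnak*, a large scaffold protein (log2 difference -0.72, adjusted p = 0.0252). The interferon list had its higher median with apoE4, 0.75 against 0.34 with apoE3, and 0 members that differed between them.

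**Figure D5:**
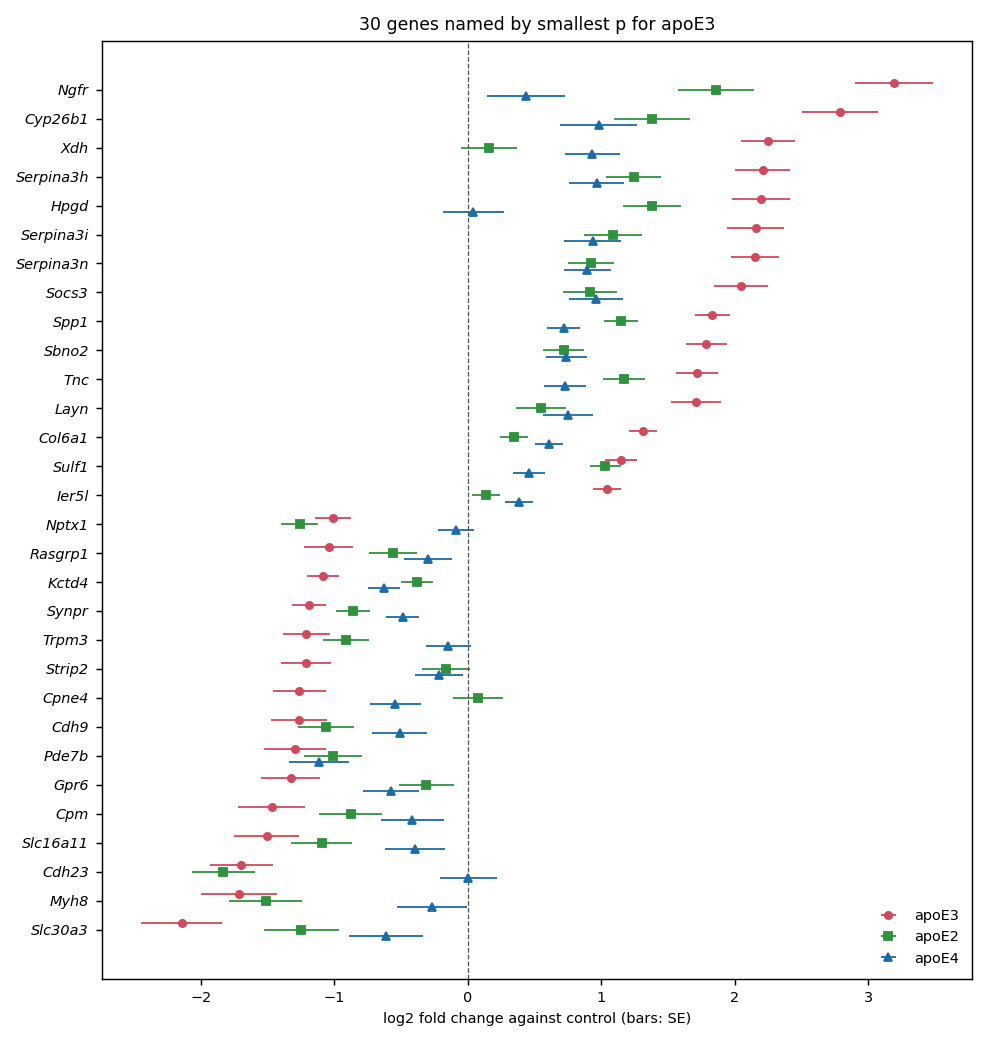
Log2 fold change against control, with its standard error as a bar, for the 15 rising and 15 falling genes of smallest p with apoE3 (circles) among those changed at least 2-fold by the fit and in the same direction in all 4 pairs, and for the same genes with apoE2 (squares) and apoE4 (triangles). *Ngfr* and *Hpgd* lie near 0 with apoE4 (0.44 and 0.04), *Xdh* near 0 with apoE2 (0.16), and the genes were chosen on the apoE3 values.

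The size of the astrocyte rise differed between pairs, and single genes can be read beside it. Summed astrocyte markers with apoE3 were 1.95, 1.22, 1.24 and 1.83 times the paired control, and reactive astrocyte genes 3.22, 1.99, 1.99 and 2.48 times. In pair 2, which had the smallest astrocyte ratio, the log2 difference within the pair was 2.06 for *Serpina3n*, 2.22 for *Hpgd*, 2.99 for *Ngfr*, 0.90 for *Gfap*, -0.96 for *Synpr* and -0.34 for *Gad1*. In pair 1, which had the largest, these were 2.70, 2.86, 4.23, 2.16, -1.43 and -0.70. These genes were named for their direction, most of them in all 4 pairs, so its being the same in both pairs says nothing further.

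Whether reads were counted by strand is not given in the sources used here. Counts may therefore be affected where exons of different genes overlap on opposite strands. In the GENCODE annotation this holds for *Stat3* with *Stat5a*, *Cebpb* with *Tmem189*, *Cebpd* with *Spidr*, *Pltp* with *Ctsa*, *Elovl1* with *Cdc20*, *Syn1* with *Araf*, *Syn2* with *Timp4*, *Gabra4* with *Gabrb1* and *Tead2* with *Cd37*. It also holds, with other annotated genes, for *Aldh1l1*, *Atp6v1c2*, *Axin2*, *Bdnf*, *C1ql3*, *Ccnd1*, *Cdh9*, *Cdkn1a*, *Csf1r*, *Cx3cr1*, *Fgf2*, *Fn1*, *Gphn*, *Grin1*, *Grin2b*, *Hmgcs1*, *Icam1*, *Lamp1*, *Litaf*, *Msn*, *Npc1*, *Ptgs1*, *Rarb*, *Rb1*, *Shank3*, *Srebf1*, *Syndig1l*, *Syp*, *Tnc*, *Trpm3*, *Yap1* and *mt-Co1*. On the same strand *Aldh1l1*, *Ctsd*, *Fgf2*, *Gria2*, *Scd2*, *Spp1*, *Srebf1*, *Top2a*, *Tuba1a* and *mt-Nd1* share exons with other annotated genes.

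Single libraries weighed on the number of calls. Over the 8 fits that left out 1 control or apoE3 library, between 554 (without control replicate 1) and 1588 genes (without apoE3 replicate 2) were called higher and between 203 (without control replicate 1) and 866 lower (without apoE3 replicate 2). Without all libraries of replicate number 1 the counts were 344 and 76. In none of these fits, nor in any other alternative run, did a gene called here change sign. The genes were called on these same libraries, and 1889 of 1990 moved one way in all 4 pairs. Their keeping the sign therefore says little about direction.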

How the data were processed

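RNA of 16 libraries was depleted of ribosomal RNA and sequenced by the authors, who aligned reads to mm10 with STAR and counted them per gene with HTSeq. The annotation and strand setting are not given in the sources used here, and the submitters' processing notes also name R 3.3.0 and DESeq2. The deposited files hold raw counts per gene for 48397 symbols. The 5 HTSeq totals of reads counted for no gene were left out of library sizes. Together these totals, which include reads not aligned, were 51.4 to 71.6% of a library compared here.

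Counts were tested with edgeR 4.0.16 (quasi-likelihood, TMM scaling, filterByExpr) in R 4.3.3 with limma 3.58.1, over all 16 libraries, with group and replicate number as terms and Benjamini-Hochberg adjustment over 17038 genes. The study names a Student's t-test per gene and does not state whether it was paired. The block was used because deviations from the group means correlated at 0.362 to 0.775 between libraries of the same number and at -0.721 to 0.409 between other libraries. Deviations from a group mean cancel out within the group, which by itself lowers the correlations between other libraries. CPM are on TMM-scaled library sizes. The scripts were tested on simulated data. Promoter windows came from RefSeq (GRCm38.p6) and gene positions from GENCODE M21 (GRCm38), in which 339 of 342 named genes were found.

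Named genes were the 15 called genes of smallest p in each direction with a fitted change of at least 2-fold and the same direction in all 4 pairs, up to 4 called members and the key members of each of 53 gene lists, the 5 most abundant called genes in each direction, *Apoe* and *Hpgd*. A few of them are not reported here. The comparison and the lists were chosen with earlier results of these data known. Alternatives were no block, DESeq2 size factors, no filter, a filter of 1 CPM in 8 libraries, DESeq2 1.42.0, only the groups compared, and leaving out each library or replicate number.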

Additional observations from a re-analysis of the deposited data

Results flagged for a closer look

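Over the 15 rising and 15 falling genes named by p and fold change, *Apoe*, the cell type sums and the library totals, 90 groups of 4 values were looked at for a library far from the others of its group, and 6 were found, where chance gives about 1 in 20. *Cdh9* was lowest in control replicate 4 (24.04 CPM, the nearest other library of the group 38.7 CPM). *Ngfr* was highest in control replicate 4 (28.9 CPM, the nearest other library of the group 7.61 CPM). *Pde7b* was highest in control replicate 1 (5.86 CPM, the nearest other library of the group 3.14 CPM). *Slc30a3* was lowest in control replicate 4 (2.67 CPM, the nearest other library of the group 12.8 CPM). *Col6a1* was highest in apoE3 replicate 4 (66.1 CPM, the nearest other library of the group 28.2 CPM). *Sbno2* was lowest in apoE3 replicate 2 (54.7 CPM, the nearest other library of the group 99.3 CPM).

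Of 31 genes compared, 16 differed between apoE3 and apoE2 and 24 between apoE3 and apoE4 at an adjusted p under 0.05 in edgeR's test of the difference with the replicate block, 13 of them from both. The genes were chosen for their difference between apoE3 and control and the same apoE3 libraries enter each test, so these differences are not independent of the choice. As log2 differences from apoE2 and from apoE4, those higher with apoE3 than with both were *Col6a1* (0.97 and 0.70), *Cyp26b1* (1.41 and 1.81), *Ier5l* (0.91 and 0.67), *Layn* (1.16 and 0.96), *Ngfr* (1.33 and 2.76), *Sbno2* (1.07 and 1.05), *Serpina3h* (0.97 and 1.24), *Serpina3i* (1.07 and 1.22), *Serpina3n* (1.23 and 1.25), *Socs3* (1.13 and 1.09), *Spp1* (0.68 and 1.12) and *Xdh* (2.09 and 1.32). The *Serpina3* members are near-identical copies, so they may not be separate differences. Lower with apoE3 than with both was *Strip2* (-1.05 and -0.998). A difference from apoE2 alone passed for *Cpne4* (-1.34), *Gpr6* (-1.02) and *Kctd4* (-0.70). A difference from apoE4 alone passed for *Cdh23* (-1.70), *Cpm* (-1.05), *Hpgd* (2.16), *Myh8* (-1.44), *Nptx1* (-0.92), *Slc16a11* (-1.11), *Slc30a3* (-1.53), *Sulf1* (0.69), *Synpr* (-0.70), *Tnc* (0.99) and *Trpm3* (-1.06).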

How the results depend on the processing

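In every alternative run, no gene called here changed sign, which says little because the genes were called on the same libraries. Without the replicate block 1 gene was called higher and 0 lower, at a 2-fold change with an unadjusted p under 0.05 the counts were 213 higher and 121 lower (598 and 215 with the block), 0 genes differed between apoE3 and apoE2 and 25 between apoE3 and apoE4, and 1 gene of the lists was called, against 472 with the block. At an unadjusted p under 0.05 alone, 1095 genes passed without the block. By the study's criterion without the block 70 list genes were counted. With no filter on low counts 1074 genes were lower, 442 at least 2-fold with an unadjusted p under 0.05, and 1242 and 1195 differed from apoE2 and apoE4, over a larger set of genes tested. With the stricter filter 374 and 77 genes were higher and lower at least 2-fold with an unadjusted p under 0.05, over fewer genes. DESeq2 with the block gave 1043 lower, 735 that differed from apoE2 and 701 from apoE4. With only the libraries of both groups 20 genes differed from apoE2. The cause of the last 2 changes was not tested.

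Leaving out 1 library or 1 replicate number left 344 to 1588 genes higher (lowest without replicate number 1, highest without apoE3 replicate 2) and 76 to 866 lower (the same exclusions), 439 to 722 and 152 to 372 by fold change with unadjusted p, 15 to 254 that differed from apoE2 (lowest without replicate number 3), 42 to 425 from apoE4 (lowest without replicate number 3), and 142 to 542 list genes called. Leaving out control replicate 1, apoE3 replicate 1 or apoE3 replicate 4 gave 554, 702 and 693 genes higher. Of 238 named genes that were called, 238 kept the call with DESeq2, 236 with DESeq2 size factors, 234 with no filter, 231 of 232 with the stricter filter and 215 with only both groups, while 1 kept it without the block and 131 to 229 when 1 library or replicate number was left out, lowest without replicate numbers 1 (131) and 3 (162) and without control replicate 1 (168). Depth limits genes of a few CPM, whose calls rest on few reads.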
